A study of Rattus norvegicus with 53 samples.

Results

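This account covers 1 comparison within a series of 53 rat arrays: blood mononuclear cells cultured with serum of day-60 DRlyp/lyp rats (4 arrays, replicates 1 to 4) against the same kind of cells cultured with autologous serum (4 arrays, replicates 7 to 10). The groups were picked by their labels. Among the autologous arrays, replicates 7 to 10 were kept because of a cluster of the values, described below. In all, 14217 genes were described, each through 1 probe set, that of highest mean level. In every group the responder cells were fresh peripheral blood mononuclear cells (lymphocytes, monocytes and what travels with them on a density gradient) of healthy male Brown Norway (BN) rats at day 180, cultured for 6 h with 20% donor serum, which the labels call serum in some fields and plasma in others. The array was an Affymetrix rat array, and its values are normalized log2 expression.

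DRlyp/lyp is a BioBreeding (BB) congenic line that is homozygous for the lymphopenia mutation lyp, a loss of function of Gimap5, and develops autoimmune diabetes spontaneously; DR+/+ is its lyp-free counterpart. Only the serum donor differed in genotype, since the responder cells were BN in all groups used here. The groups set beside the main pair were serum of other BN rats (allogeneic BN, 12 arrays used), day-60 DR+/+ serum (4 arrays), day-60 DRlyp/lyp serum to which the interleukin-1 receptor antagonist IL-1RA was added (4 arrays) and autologous BN serum to which IL-1B was added (4 arrays). Autologous and allogeneic BN serum came from donors at day 180. The strain and the age of the serum donor therefore cannot be told apart in the comparisons of day-60 serum with BN serum. The labels call the DRlyp/lyp serum allogeneic. In the main comparison, another rat's serum against the cells' own therefore cannot be told apart from strain and age either. Rats over a glucose limit were kept out of the prediabetes studies, per the labels. No label ties a replicate to an animal of its own, so the p-values here measure the spread between these arrays, which may be technical.

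Autologous replicates 7 to 10 were used because the values of all 53 arrays fall into 2 clusters, of 21 and 32 arrays, and every day-60 array lies in the larger one together with these 4, whereas autologous replicates 1 to 6 lie in the other. The labels name no array run, so what the clusters are is not known. Of the variance, 49.9% lay on the first principal component. The ratio of 3′ to 5′ actin signal, a sign of RNA quality, had log2 values of 2.14 to 2.46 on the DRlyp/lyp arrays, 2.37 to 2.78 on autologous replicates 7 to 10 and 3.20 to 4.31 on replicates 1 to 6. Over all arrays the clusters overlapped in it, at 1.13 to 3.36 in the larger and 0.76 to 4.31 in the smaller. Its part in the results was not tested beyond the fit with actin as a covariate given with Akr1b8. The number of arrays limits the precision throughout: an exact two-sided permutation test of 4 arrays against 4 cannot give a p below 0.0286.

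The cell types in the culture were checked by their defining markers. Of 7 T cell markers, 6 lay above the median probe set on all 8 arrays, as did all 3 measured B cell markers, 3 of 5 NK markers and 4 of 6 monocyte markers. The neutrophil genes Camp and Csf3r, the endothelial genes Kdr and Tek and the fibroblast genes Dcn, Col3a1 and Col1a2 lay below that median on all 8. The other 2 of 4 measured neutrophil markers and 1 of 3 endothelial markers lay above it on all 8, and none of 4 fibroblast markers did. All 6 platelet markers and all 4 measured erythroid markers lay above it on all 8, so transcripts typical of platelets and red cells were measured too.

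Serum can act on mononuclear cells through many receptors at once, and monocytes are usually the first to respond in a culture of a few hours. Oxidant and electrophile stress is sensed through NRF2, which is held in the cytoplasm by KEAP1 and, when released, switches on genes for detoxifying reductases, haem breakdown and cystine uptake. Inflammatory signals reach monocytes through pattern receptors, of which CD14 is the co-receptor for lipopolysaccharide, and through the interleukin-1 receptor, for which IL-1RA is the natural blocker.

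Akr1b8, an aldo-keto reductase that removes reactive aldehydes and is a known NRF2 target, was the only gene that passed the test. Its log2 values were 9.22, 8.72, 8.26 and 8.33 with DRlyp/lyp serum and 6.40, 7.05, 5.25 and 4.88 with autologous serum. Every DRlyp/lyp array was above every autologous array, and the autologous arrays spread more than the DRlyp/lyp arrays. The means were 8.63 ± 0.44 and 5.90 ± 1.01 (SD, n = 4 each), a log2 difference of 2.74 with a standard error of 0.47, or 6.66-fold (limma adjusted p = 0.0285). The call did not hold when an array was left out: without DRlyp/lyp replicate 1, 2, 3 or 4 the limma adjusted p was 0.208, 0.162, 0.084 and 0.0659, without autologous replicate 7, 9 or 10 it was 0.0905, 0.143 and 0.357, and without autologous replicate 8 it was 0.00512. It also missed the threshold in a fit of the 8 arrays alone (limma adjusted p = 0.107), after quantile normalization (0.17), without a variance trend (0.068) and with actin as a covariate (0.0524). The log2 difference was between 2.40 and 3.12 in all of these fits. Of 21 alternative settings, with the leave-out fits and allogeneic serum as the reference among them, Akr1b8 passed in 10. Of fits chosen after seeing the data, it passed with group means per cluster (limma adjusted p = 0.00175). It also passed in the cluster without its allogeneic arrays (limma adjusted p = 0.0202). In a mixed culture, more cells that express a gene and more of its RNA per cell cannot be told apart, here and in what follows.

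Over the whole array, 2 of 31042 probe sets were called at an adjusted p under 0.05, or 0.00644%. As genes, 1 of 14217 was called higher, or 0.00703%, and none was called lower. At an unadjusted p under 0.05 there were 1501 probe sets, or 4.84% of those tested; at the same level 224 genes were higher and 415 lower with DRlyp/lyp serum. The groups did not overlap at 157 genes that were higher (1.1% of genes) and at 192 that were lower (1.35%). Differences over 1 log2 unit were found at 24 genes that were higher, 21 of them without overlap, and at 7 that were lower, 3 of them without overlap. The median difference over all genes was 0.01 log2, and 7393 of the 14217 differences were positive. When the 8 arrays were fitted alone, 2 probe sets were called, 1388265_x_at of Vcan and 1376688_a_at of Pilra, an inhibitory receptor of myeloid cells, named here after its values were seen. Both differed by 1.62 (limma adjusted p = 0.0314 and 0.0451 in that fit, 0.16 and 0.929 in the fit of the cluster).

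**Figure D1:**
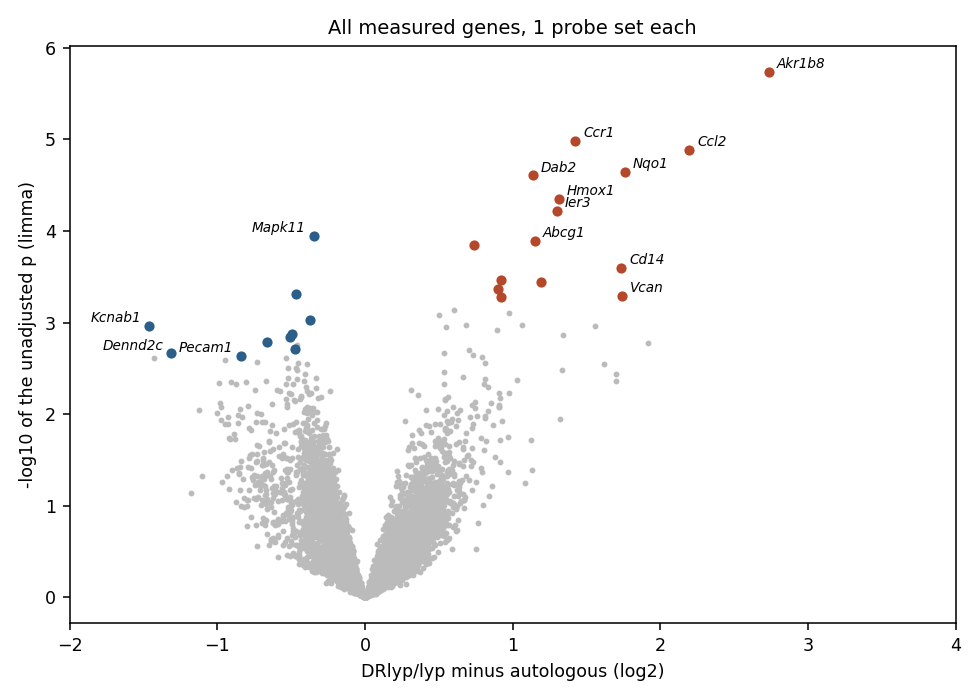
Log2 difference (DRlyp/lyp minus autologous serum, horizontal axis) against -log10 of the unadjusted limma p (vertical axis) for 14217 genes, 1 probe set each; red and blue points are the 15 leading positive and 10 leading negative named genes. Akr1b8 stands alone at the top right with a difference of 2.74, and the differences over 1 are mostly positive.

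The second called probe set belongs to Thbd, thrombomodulin, an anticoagulant receptor. On probe set 1375951_at the log2 values were 4.49, 4.79, 4.81 and 4.28 with DRlyp/lyp serum and 3.12, 3.94, 3.20 and 3.40 with autologous serum, a difference of 1.18 (limma adjusted p = 0.0285). The other Thbd probe sets did not show it: 1368900_at, the one that stands for the gene here, had 3.65, 3.60, 3.81 and 4.15 against 4.19, 3.94, 3.91 and 3.95, a difference of -0.19, and 1368901_at had a difference of 0.05. Because the probe sets disagree, no direction is given for Thbd.

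The promoter of Akr1b8 is printed with those of Nqo1 and Slc7a11, because all 3 are known NRF2 targets and stand among the leading positive differences. The letters are the 250 bases before each annotated start, 5′ to 3′ on the gene's strand, from RefSeq (assembly GRCr8). Capitals mark matches, on either strand, to TGANNNNGC, a loose form of the core of the antioxidant response element. The windows are chr4:63964171-63964420 (plus strand), chr19:52220268-52220517 (minus strand) and chr2:136668265-136668514 (minus strand).
Akr1b8: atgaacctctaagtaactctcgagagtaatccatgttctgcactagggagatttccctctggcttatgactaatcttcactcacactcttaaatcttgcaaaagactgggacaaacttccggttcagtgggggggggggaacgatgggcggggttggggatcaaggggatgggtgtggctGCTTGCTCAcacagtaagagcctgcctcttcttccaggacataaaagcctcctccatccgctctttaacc
Nqo1: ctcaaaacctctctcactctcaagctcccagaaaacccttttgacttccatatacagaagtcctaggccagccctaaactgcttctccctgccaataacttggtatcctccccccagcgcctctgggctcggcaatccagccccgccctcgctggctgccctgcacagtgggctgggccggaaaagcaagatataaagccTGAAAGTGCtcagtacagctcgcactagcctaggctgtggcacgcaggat
Slc7a11: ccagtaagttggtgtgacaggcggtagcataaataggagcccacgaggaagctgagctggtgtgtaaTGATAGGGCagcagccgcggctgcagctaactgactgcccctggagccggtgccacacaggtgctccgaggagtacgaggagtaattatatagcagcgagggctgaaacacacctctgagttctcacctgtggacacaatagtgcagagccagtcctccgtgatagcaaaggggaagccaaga

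Each window held 1 match: bases 70 to 62 before the start in Akr1b8, on the opposite strand, 50 to 42 in Nqo1 and 183 to 175 in Slc7a11. Such a match is common, since 34.7% of the 33469 rat promoters in the same table hold at least 1 in a window of this length. The matches describe the letters and are not shown to be antioxidant response elements. No binding was measured.

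Among the other NRF2 targets, Nqo1, a quinone reductase, had log2 values of 8.38, 8.48, 8.16 and 8.14 with DRlyp/lyp serum and 5.89, 7.46, 6.42 and 6.34 with autologous serum. The groups did not overlap; the nearest array was autologous replicate 8. The difference was 1.76 with a standard error of 0.36 and did not pass (limma adjusted p = 0.109). Hmox1, haem oxygenase 1, had 7.34, 6.90, 7.28 and 6.67 against 5.97, 6.43, 5.39 and 5.13, a difference of 1.32 (limma adjusted p = 0.16). Slc7a11, the cystine importer that feeds glutathione synthesis, had 6.02, 6.41, 6.79 and 6.41 against 4.49, 5.62, 5.16 and 5.58, a difference of 1.19 (limma adjusted p = 0.452). Neither overlapped, and for Hmox1 replicate 8 was again the highest autologous array.

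Of 26 measured NRF2 targets, 1 was called higher and none lower. The groups did not overlap at 6, all of them higher with DRlyp/lyp serum: the 4 already named, Gclc (0.41), the catalytic subunit of glutathione synthesis, and Nfe2l2 (0.33), which encodes NRF2. Of all genes 1.1% were higher without overlap. The last pair was named after its values were seen. The median over the list was 0.12 log2 against 0.01 over all genes, and 19 of 26 differences were positive, against 7393 of 14217 over all genes.

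Chemokines and their receptors held the next leading genes. Ccl2, which draws monocytes, had log2 values of 8.26, 7.35, 7.28 and 7.03 with DRlyp/lyp serum and 5.57, 6.34, 4.63 and 4.59 with autologous serum. DRlyp/lyp replicate 1 was the highest of all and the groups did not overlap; the difference was 2.20 with a standard error of 0.43, or 4.59-fold (limma adjusted p = 0.102). Ccr1, a receptor for several CC chemokines, had 6.76, 6.98, 7.35 and 6.49 against 5.62, 6.04, 5.32 and 4.91, a difference of 1.42 (limma adjusted p = 0.102), also without overlap. Of 13 measured CC chemokine genes none was called and the median was 0.10. Without overlap 2 were higher, against 1.1% of all genes. The next by p were Ccl3 (0.57), an attractant of monocytes and T cells, and Ccr2 (-0.31), the receptor for CCL2. Both had overlap (limma adjusted p = 0.93 for each). The neutrophil attractant Cxcl2 had 8.80, 8.87, 8.55 and 8.89 against 8.68, 7.65, 6.87 and 6.56, a difference of 1.34 (limma adjusted p = 0.778), and autologous replicate 7 lay within the DRlyp/lyp range. Of 15 CXC chemokine genes none was called and 5 were positive, with a median of -0.10. Cxcl16, Cxcr2 and Cxcl1 differed by 0.54, -0.29 and 0.38, all with overlap (limma adjusted p = 0.93 for each).

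Without autologous replicate 8, 6 of 14217 genes passed, all of them among the 15 leading genes, which were chosen by p on these arrays. They were Akr1b8, Ccl2 (limma adjusted p = 0.0158), Nqo1 (0.0168), Ccr1 (0.0174), Ier3 (0.0185) and Hmox1 (0.0242). Without any other single array of the 8, none of the 15 passed. Replicate 8 was the highest autologous array at 12 of the 15 genes.

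Genes that monocytes express were also among the leading positive differences. Cd14 had log2 values of 8.38, 9.08, 9.13 and 8.83 with DRlyp/lyp serum and 6.81, 7.85, 7.31 and 6.51 with autologous serum, a difference of 1.74 with a standard error of 0.42 (limma adjusted p = 0.39). Vcan, the matrix proteoglycan versican, had 7.46, 7.87, 7.41 and 7.59 against 6.03, 6.75, 5.54 and 5.05, a difference of 1.74 (limma adjusted p = 0.51). Both were without overlap. Of the 4 further Vcan probe sets, 1388142_at, 1371232_a_at and 1388265_x_at differed by 3.11, 1.82 and 1.62, whereas 1371233_at, whose log2 values were near 3, did not differ in its means. Dab2, an endocytic adaptor, had 6.56, 6.60, 6.46 and 6.99 against 4.95, 5.81, 5.56 and 5.74, a difference of 1.14 (limma adjusted p = 0.109).

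The list of monocyte and macrophage genes had 17 measured members, of which none was called. It had 12 positive members and 5 higher without overlap, against 7393 of 14217 and 1.1% over all genes, and a median of 0.30. Its leading members were Mpeg1, the pore-forming perforin-2 of phagocytes, with a difference of 1.56, and the lysosomal gene Gpnmb with 1.70; neither passed (limma adjusted p = 0.699 and 0.93). Mpeg1 had 8.52, 8.52, 9.0 and 8.69 against 6.64, 7.83, 7.05 and 6.98, with no overlap, but its other probe set, 1369427_at, differed by -0.21 with overlap. Cd68, a lysosomal marker of macrophages, differed by 0.81 and Ctsl, a lysosomal protease, by 1.03, the latter with overlap. The matrix and adhesion genes that monocytes express had 17 members, none called, with a median of 0.19; Fn1, fibronectin, had 9.27, 9.81, 10.05 and 8.88 against 7.04, 8.97, 7.66 and 6.69, a difference of 1.91 with overlap at autologous replicate 8, and Tgfbi differed by 1.70 (limma adjusted p = 0.842 and 0.93).

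The mean of 6 fixed monocyte markers was 7.71 to 7.89 on the DRlyp/lyp arrays and 6.96 to 7.53 on the autologous arrays. These markers include Cd14, itself a leading gene chosen on these arrays. The mean is therefore not independent of the leading genes and cannot show that monocyte markers as a set moved with them. The part of the cell makeup in the results was not tested. Within this marker list Fcgr3a lay below the median probe set on all 8 arrays.

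Among pattern receptors, 13 genes were measured and none was called; 10 were positive and 5 were higher without overlap, against 7393 of 14217 and 1.1% over all genes. The median of 0.42 was the highest of the 38 lists. After Cd14 came Clec12a, an inhibitory lectin receptor of myeloid cells (0.97, limma adjusted p = 0.682), Tlr8, an endosomal receptor for RNA (0.85, limma adjusted p = 0.93), and the mannose receptor Mrc1 (0.41, limma adjusted p = 0.93). Tlr8 was at 5.23, 5.01, 5.31 and 4.85 with DRlyp/lyp serum and at 4.01, 4.27, 4.37 and 4.34 with autologous serum. Of 12 receptors for antibody and complement none was called, and 4 were higher without overlap, among them Fcgr1a, the high-affinity IgG receptor (0.89), Fcgr2b, the inhibitory one (0.93), and C5ar1, the C5a receptor (0.80). C3ar1 was lower without overlap by 0.24, and the median was 0.17.

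**Figure D2:**
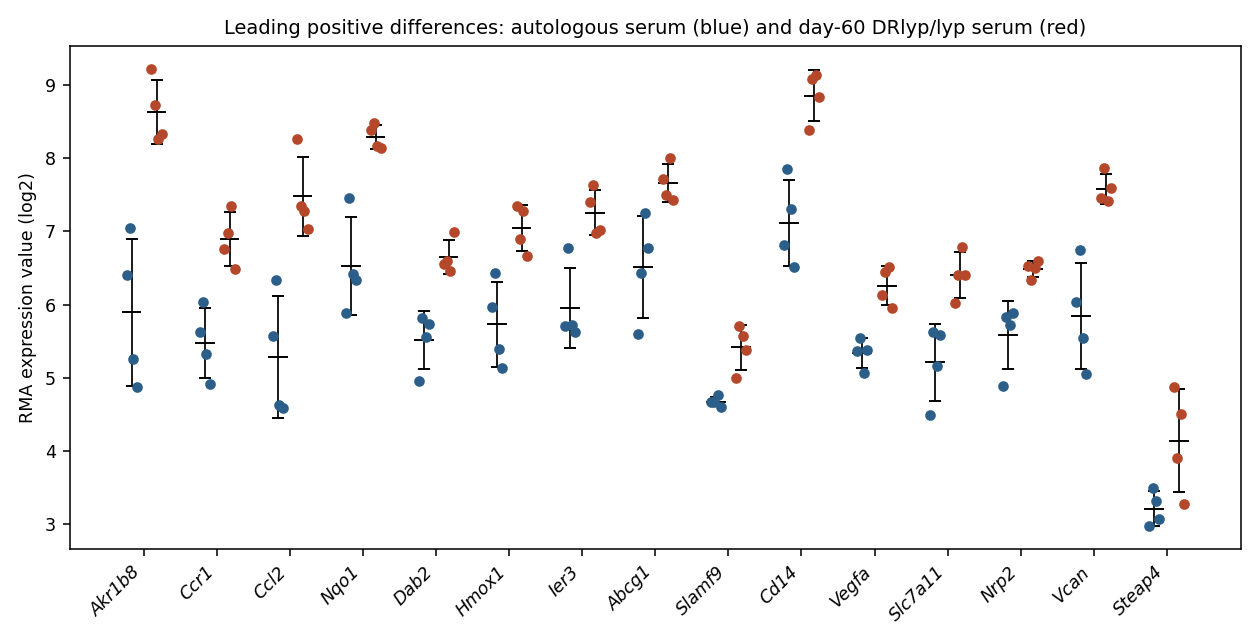
Log2 expression of the 15 leading positive genes (horizontal axis, in order of p) on each autologous array (blue, replicates 7 to 10) and each day-60 DRlyp/lyp array (red, replicates 1 to 4); black lines are the mean and the SD. The genes were chosen by p on these same arrays. The groups are apart at 14 of the 15 genes and meet at Steap4, whereas 1.1% of all genes were higher without overlap. Only Akr1b8 passed the test.

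The other leading positive genes were a lipid exporter, 2 receptors, a growth factor and a few genes of stress and iron handling. Abcg1, which exports cholesterol, had log2 values of 7.72, 7.49, 8.00 and 7.43 against 5.60, 6.43, 7.25 and 6.77, a difference of 1.15 (limma adjusted p = 0.233). Its probe sets 1373995_at and 1387054_at differed by 0.21 and -0.17, so the difference rests on 1 of 3. Ier3, an early gene of NF-kappaB and stress, had 7.40, 7.63, 6.98 and 7.02 against 5.71, 6.77, 5.72 and 5.62, a difference of 1.30 (limma adjusted p = 0.189). Vegfa, which promotes vessel growth, differed by 0.92, its receptor partner Nrp2 by 0.90 and the myeloid surface gene Slamf9 by 0.74, each without overlap (limma adjusted p = 0.445, 0.474 and 0.243). The other Vegfa probe set, 1370081_a_at, differed by 0.20 with overlap. Steap4, a metalloreductase, had 4.88, 3.90, 4.50 and 3.28 against 2.97, 3.50, 3.31 and 3.07, a difference of 0.92 at low levels, with replicate 4 inside the autologous range (limma adjusted p = 0.511).

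Of 22 genes of liver X receptor action and lipid handling, none was called and the median was 0.03. Besides Abcg1, Abca1, the cholesterol exporter of that pathway, differed by 0.59 and Nr1h3, which encodes the receptor LXR-alpha, by 0.45, both without overlap, and Plin2, which coats lipid droplets, by 0.73 with overlap (limma adjusted p = 0.93 for each). Abca1 has further probe sets, of which 1382431_at differed by 1.21 and 1384381_at by 0.41. Of 24 immediate early genes none was called; Fos, Klf4 and Egr1, transcription factors induced within minutes of a stimulus, differed by 1.32, 0.91 and 0.82 without overlap (limma adjusted p = 0.93 for each). Fos was at 8.17, 8.24, 8.81 and 8.49 with DRlyp/lyp serum and at 7.36, 7.08, 7.11 and 6.88 with autologous serum. The list's median was 0.085.

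MHC class II genes and their regulators had 14 measured members, none called. A positive difference was found at 12 of them (7393 of 14217 over all genes), 4 were higher without overlap (1.1% of all genes were) and the median was 0.24. RT1-Bb, a class II beta chain, differed by 0.61 and Ciita, the master regulator of class II genes, by 0.41. RT1-DMb, a chain of the peptide-loading molecule DM, differed by 0.38 without overlap, and Marchf8, a ubiquitin ligase that removes class II from the surface, by -0.45 with overlap (limma adjusted p = 0.93 for each of the 4). Of 19 genes of endoplasmic reticulum and amino acid stress none was called, with 15 positive and a median of 0.28; Creld2, a chaperone-like gene, led with 0.63, followed by Psat1 (0.45), Sesn2 (0.40) and Sdf2l1 (0.37), these with overlap (limma adjusted p = 0.93 for each). The 25 proteasome genes had a median of 0.26 (23 positive, 1 without overlap) and none was called.

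**Figure D3:**
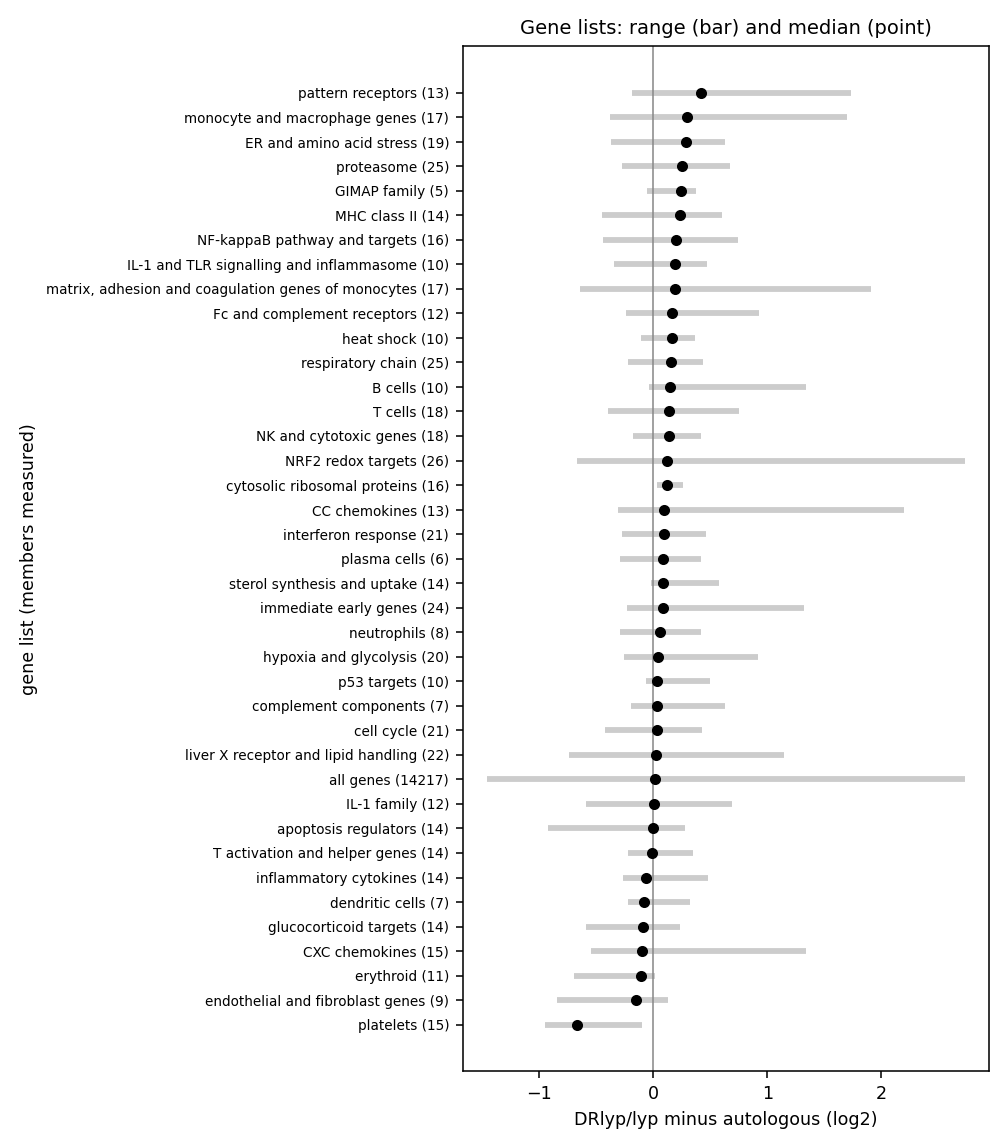
Range (grey bar) and median (black point) of the log2 differences, DRlyp/lyp minus autologous serum, for 38 gene lists and for all genes (vertical axis, with the number of measured members). Pattern receptors are at the top with a median of 0.42, platelet genes at the bottom with -0.67, and all genes at 0.01.

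The interleukin-1 family is the pathway that the study's IL-1RA and IL-1B arms address. Il1b, the secreted cytokine of activated monocytes, had log2 values of 9.79, 9.91, 9.20 and 9.05 with DRlyp/lyp serum and 9.35, 9.61, 8.47 and 7.77 with autologous serum. The groups overlapped and the difference was 0.69 with a standard error of 0.30 (limma adjusted p = 0.93). Il1a differed by 0.12, Il18 by 0.38, the antagonist gene Il1rn by -0.08 and the decoy receptor Il1r2 by -0.59, all with overlap. The accessory receptor Il1rap differed by 0.28 and the alarmin Il33 by -0.30, also with overlap. Il1r1, the signalling receptor, had 4.42, 4.28, 4.40 and 4.32 against 4.56, 4.53, 4.65 and 5.13, lower without overlap by 0.36 (limma adjusted p = 0.93). Of 12 measured family members none was called, 6 were positive and the median was 0.01. Of 10 genes of receptor signalling and the inflammasome none was called, and 9 were positive (7393 of 14217 over all genes) with a median of 0.19.

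Inflammatory cytokines other than these gave a median of -0.07 over 14 genes, with none called. Il6 differed by 0.36 and Osm, oncostatin M, by 0.48 (limma adjusted p = 0.93 for each); for Osm the groups did not overlap, but 3 of the 4 DRlyp/lyp arrays were at 7.64 to 7.82 and replicate 3 was at 8.79. Il12b, a subunit of IL-12 and IL-23, differed by -0.27 without overlap and Lif, a cytokine of the IL-6 family, by -0.22 with overlap (limma adjusted p = 0.93 for each). Of 16 genes of the NF-kappaB pathway none was called, with a median of 0.20; Plaur, the urokinase receptor, differed by 0.74 without overlap the survival gene Bcl2a1 by 0.59, the adhesion gene Icam1 by 0.41 and Bcl3, an atypical I-kappaB protein, by -0.41, the last 3 with overlap (limma adjusted p = 0.93 for each). Genes of the interferon response had a median of 0.10 over 21 members, none called. Mx1 differed by 0.38, Mx2 by -0.27, Stat2 by 0.35 and Psmb9 by 0.41 (limma adjusted p = 0.93 for each). Of these 4, Stat2 was free of overlap. The other Mx2 probe set, 1387283_at, was higher without overlap by 0.40 (limma adjusted p = 0.192). Because the probe sets disagree, no direction is given for Mx2.

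Lists of lymphocyte and dendritic cell genes had no called member. T cell genes had a median of 0.14 over 18 members, genes of T cell activation -0.01 over 14, B cell genes 0.15 over 10, NK and cytotoxic genes 0.14 over 18 and dendritic cell genes -0.08 over 7. Of the T cell genes, Cd28 differed by -0.39, Bcl11b by 0.75, Cd6 by 0.25 and Cd2 by 0.21, all with overlap (limma adjusted p = 0.93 for each). The B cell list includes Tnfsf13, the cytokine APRIL, which myeloid cells also make: it differed by 1.34 without overlap (limma adjusted p = 0.93). Btk, Blk and Cd79b of the same list, all of B cell receptor signalling, differed by 0.26, 0.21 and 0.32 with overlap (limma adjusted p = 0.93, 0.932 and 0.95). Gimap5, the gene mutated in the serum donors' line but intact in the BN responder cells, had 9.91, 10.39, 10.25 and 9.15 against 9.41, 10.33, 10.09 and 8.85, a difference of 0.26 with overlap. The cell cycle list had a median of 0.03 over 21 genes.

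None of the leading negative differences passed. Kcnab1, a potassium channel subunit, had log2 values of 8.96, 9.10, 8.62 and 9.16 with DRlyp/lyp serum and 10.87, 10.57, 9.40 and 10.85 with autologous serum, a difference of -1.46 without overlap (limma adjusted p = 0.699). Its other probe set, 1369847_at, differed by only -0.28, also without overlap (limma adjusted p = 0.93). Dennd2c, an exchange factor for Rab proteins, had 6.10, 5.87, 5.82 and 5.80 against 7.88, 7.23, 6.39 and 7.34, a difference of -1.31 without overlap (limma adjusted p = 0.929). In both, autologous replicate 9 lay nearest to the DRlyp/lyp arrays. Pecam1 and Esam, adhesion molecules of endothelium and platelets, differed by -0.84 and -0.66 with overlap (limma adjusted p = 0.929 and 0.842). Mapk11 (-0.35), Oprl1 (-0.47) and Lnpep (-0.50) were lower without overlap, and Tbx18 (-0.37), Adam7 (-0.51) and Asah2 (-0.47) with overlap; of these, Mapk11 and Tbx18 had mean log2 values between 2.70 and 3.42, the low end of the array.

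Platelet genes were the list with the lowest median, -0.67 over 15 measured members. All 15 differences were negative, whereas 7393 of 14217 were positive over all genes. None of the 15 was called or free of overlap. Mmrn1, multimerin, had 7.99, 8.08, 7.65 and 8.32 with DRlyp/lyp serum and 9.42, 9.21, 8.11 and 9.08 with autologous serum, a difference of -0.95, and Gp5, a platelet adhesion glycoprotein, differed by -0.89 (limma adjusted p = 0.93 for each). Treml1 and Itgb3 differed by -0.79 and -0.67. The mean of 6 fixed platelet markers was 9.25 to 10.29 on the DRlyp/lyp arrays and 9.76 to 10.96 on the autologous arrays. Erythroid markers were at 11.24 to 11.88 and 11.70 to 11.95; the red cell genes Xk, Slc4a1, Gata1 and Epb42 differed by -0.63, -0.70, -0.38 and -0.31, none past the test.

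**Figure D4:**
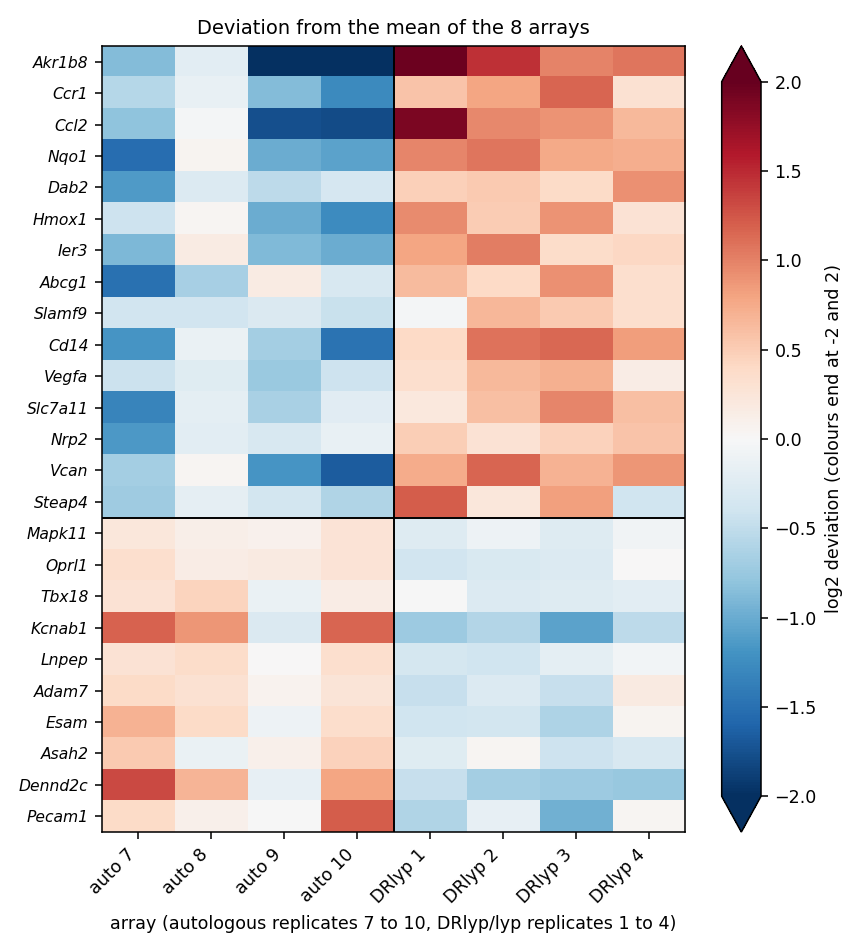
Deviation of each array from the mean of the 8 arrays (log2, colours end at -2 and 2) for the 15 leading positive genes (above the line) and the 10 leading negative genes (below it), autologous replicates 7 to 10 at left and DRlyp/lyp replicates 1 to 4 at right. Autologous replicate 8 is the palest autologous column at most positive genes, and replicate 9 at several negative ones.

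The same 15 positive genes were set against the other sera of the cluster; these comparisons share the 4 DRlyp/lyp arrays with the main one. Against allogeneic BN serum all 15 were called higher, with Akr1b8 at 3.21, Ccl2 at 2.37, Cd14 at 1.97 and Nqo1 at 1.84 log2 (limma adjusted p = 4.01e-05, 0.000658, 0.00219 and 0.00135). In that comparison 15.6% of all genes were called higher and 5.04% lower. Of the 10 negative genes 7 were called lower there, with differences of all 10 between -1.35 and -0.07. The count of called probe sets in that comparison was 4964, of which 3009 were higher; with each array centred on its median it was 4870, of which 3896 were higher. It fell to 292 without DRlyp/lyp replicate 1, to 2099 without replicate 2 and to 1115 without replicate 3. Il1b was called higher than with allogeneic serum, by 1.20 (limma adjusted p = 0.00414). At 7 of the 15 genes every allogeneic array lay below every DRlyp/lyp array. The genes were chosen as high on those DRlyp/lyp arrays, which favours this count, and the share over all genes was not counted. Allogeneic replicate 15 was the highest allogeneic array at 8 genes, and its Nqo1 value of 8.45 lay within the DRlyp/lyp range.

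Against day-60 DR+/+ serum none of the 15 was called, and the differences lay between -0.38 and 0.36, with standard errors of 0.17 to 0.47. Akr1b8 was at 8.74, 8.73, 7.86 and 9.49 with DR+/+ serum, a difference of -0.07, and Ccl2 was at 6.95, 7.75, 7.01 and 9.21, a difference of -0.25. Over all probe sets 1 was called between the lines, or 0.00322%, and 1544 had an unadjusted p under 0.05. It was Rasd1, a Ras-related gene induced by glucocorticoids: 8.37, 8.16, 8.31 and 8.10 with DRlyp/lyp serum and 6.98, 5.68, 6.59 and 6.55 with DR+/+ serum, a difference of 1.78 with a standard error of 0.25 (limma adjusted p = 0.00149). In a fit of the 8 arrays of these groups alone, Rasd1 did not pass (limma adjusted p = 0.992). Same-numbered arrays deviated together. With the replicate number as a block in those 8 arrays, Rasd1 did not pass either (limma adjusted p = 0.683) and 0 probe sets were called. Both fits leave out the other arrays of the cluster, so the loss of the call cannot be tied to the block. Rasd1 did not separate DRlyp/lyp from autologous serum, where it was at 8.62, 8.23, 8.69 and 8.65.

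With IL-1RA added to the DRlyp/lyp serum, 0 probe sets differed by limma from DRlyp/lyp serum alone (0%), and 808 had an unadjusted p under 0.05. The 15 genes differed by -0.31 to 0.31. Akr1b8 was at 9.34, 9.02, 7.87 and 8.64 and Ccl2 at 7.45, 7.61, 6.81 and 7.32 with IL-1RA, within or near the range of DRlyp/lyp serum alone. A p that misses the threshold does not show that these sera act alike.

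The mean of the 15 genes put these groups in order without further tests. It was 6.81 to 7.08 with DRlyp/lyp serum, 6.86 to 7.26 with DR+/+ serum and 6.87 to 7.12 with added IL-1RA, which overlapped. It was 5.34 to 6.14 with autologous serum (replicates 7 to 10), 5.21 to 6.54 with allogeneic serum and 5.55 to 5.91 with autologous serum plus IL-1B, which overlapped among themselves and lay below the first 3. The genes were chosen on the DRlyp/lyp and autologous arrays, so the place of those 2 groups in the order is given by the choice. With IL-1B added, Akr1b8 was at 5.70, 6.59, 5.36 and 5.64, and at 13 of the 15 genes all 4 such arrays lay below all DRlyp/lyp arrays. The choice of the genes also favours other groups lying below the DRlyp/lyp arrays, and the share over all genes was not counted.

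**Figure D5:**
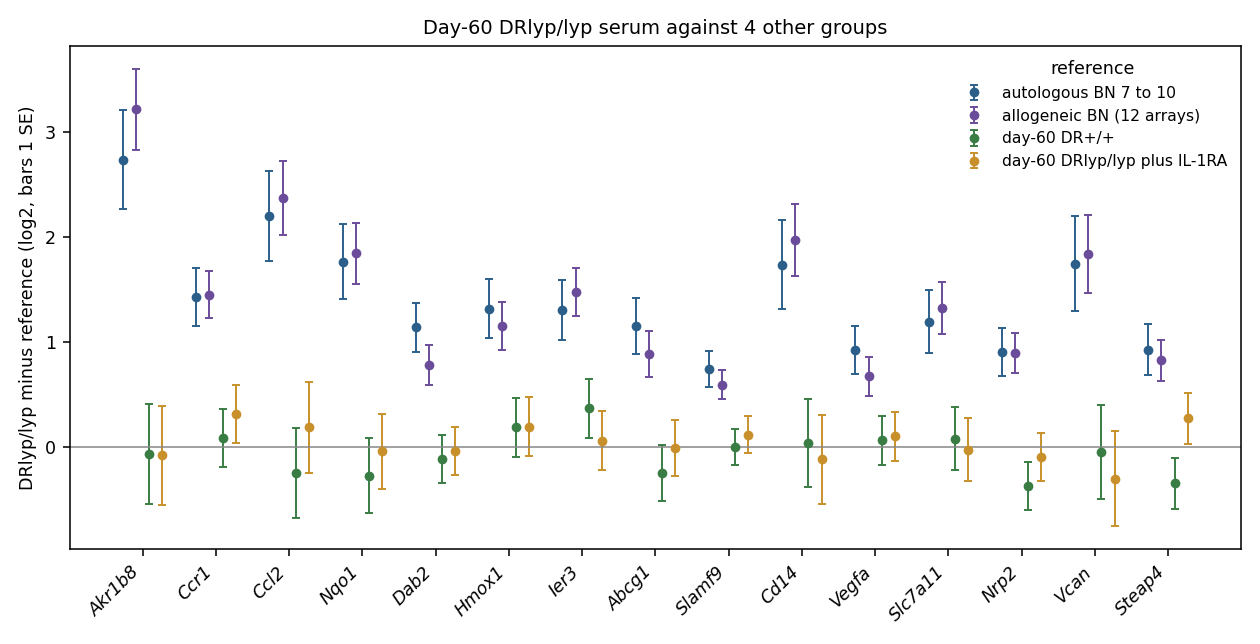
Log2 difference of day-60 DRlyp/lyp serum from 4 other groups (colours) at the 15 leading positive genes, with bars of 1 standard error from the limma fit. The differences from autologous and allogeneic BN serum are all positive, and those from DR+/+ serum and from DRlyp/lyp serum plus IL-1RA lie between -0.38 and 0.36.

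Autologous replicates 1 to 6, which lie in the other cluster of arrays, gave a mean of the 15 genes of 5.03 to 6.39, close to that of replicates 7 to 10. They did not match gene by gene: Abcg1 was at 7.70 to 8.52 on them, above autologous replicates 7 to 10 and reaching past the DRlyp/lyp arrays. Replicate 1 was the highest of the 6 at 12 of the 15 genes, with Steap4 at 7.69 and Cd14 at 8.39. At 10 of the 15 genes all 6 arrays lay below all DRlyp/lyp arrays. The choice of the genes on the DRlyp/lyp arrays favours this count, and the share over all genes was not counted. The count also sets arrays of different clusters against each other, and the part of the cluster in it was not tested.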

How the data were processed

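The deposited values are log2 expression made by the authors with RMA in Partek 6.2, per the submitters' processing notes; the array files were not used here. Biotin-labelled cRNA was prepared from total RNA per the labels' protocols. All 53 columns were matched to samples. Control probe sets (57) were left out, which left 31042; 20826 of these had 1 gene symbol, 436 had several and 9780 had none in GEO's platform annotation, and genes were named from the first kind only.

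Group means were fitted to the 32 arrays of the larger cluster (Ward, 2 clusters) with limma 3.58.1 in R 4.3.3, with a trend of variance on mean expression and Benjamini-Hochberg adjustment over all probe sets; the other groups enter only the variance. The fit was run on simulated data with independent noise of equal spread in all groups. The real arrays deviate together in part and differ in spread, so the simulation cannot vouch for the calls here. A gene was represented by its probe set with the highest mean. The text names every called gene, the next genes by p up to 15 higher and 10 lower (provisional symbols left out), of the first 4 members by p those of the lists it describes by gene, and 6 IL-1 genes; others are marked, and the remaining lists are given by counts and medians. The members, lists and tests were chosen with earlier results of these data known. Lists are described by counts and medians only.

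Replicate numbers 7 to 10 and 1 to 4 are not shared, so the main comparison has no paired fit. Whether these arrays share responder cell donors is not in the labels. If they do, the p-values of the main comparison ignore that pairing. DRlyp/lyp and DR+/+ share numbers, and the deviations of same-numbered arrays correlated at 0.336, 0.605, 0.419 and 0.175 (across probe sets), so the block is given beside that result. For the IL-1RA arrays, numbered alike, the correlations were 0.0706, 0.511, 0.649 and 0.306. The block was fitted there too, and 0 probe sets were called.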

Additional observations from a re-analysis of the deposited data

Results flagged for a closer look

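In groups of 4, an array far from the other 3 was found for 7 of 136 groups examined (68 genes, both sera), by Dixon's criterion; chance gives about 1 in 20. With DRlyp/lyp serum, replicate 3 was apart at 4 genes. It was high at Osm (8.79, the others at 7.64 to 7.82) and low at Il1a (5.03, the others at 5.55 to 5.60), Gp5 (5.92, the others at 6.99 to 7.14) and Treml1 (9.62, the others at 10.84 to 10.92). Replicate 4 was low at Psat1, a serine synthesis enzyme (8.37, the others at 8.74 to 8.77). With autologous serum, replicate 8 was high at Ier3 (6.77, the others at 5.62 to 5.72) and replicate 7 was low at Nrp2 (4.89, the others at 5.72 to 5.89).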

How the results depend on the processing

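The count of 2 called probe sets (1 gene) was 9 (6 genes) with all 53 arrays and the cluster as a block, 51 (30 genes, 45 of the probe sets higher) with all 53 arrays and no cluster term, 1 (0 genes) after quantile normalization, 1 probe set among those above the median level and 1 with 1 probe set per gene, 0 (0 genes) without a variance trend, 5 (2 genes) with array weights and 1 (0 genes) with actin as a covariate. It was 0 at an adjusted p under 0.01 (0 genes) and 11 (7 genes) at an adjusted p under 0.2 with a difference of 0.5 or more. With the highest-variance probe set for each gene, 2 genes were called. Leaving out 1 of the 8 arrays gave 0 to 8 probe sets and 0 to 6 genes. Among fits chosen after seeing the data, separate group means per cluster gave 11 (6 genes), and the cluster without its allogeneic arrays 9 (5 genes). Against allogeneic serum the 4964 became 701 with no cluster term, 2367 after quantile normalization, 8944 with array weights, 7838 with the actin covariate, and 292 to 7368 with an array left out. Between the BB lines the 1 became 0 in the fit of those arrays alone, in each of the 3 fits of 53 arrays and with the replicate block, and 15 with array weights; against added IL-1RA it stayed 0, with the replicate block too. Of 1416 values for 68 genes, 5 changed sign: Esam (0.12) and Il1rn (0.20) with no cluster term, Asah2 (0.004) on another probe set, and, with 1 array left out, Il1rn (-0.209 to 0.065) and Il1a (-0.003 to 0.258). The causes were not tested. Of 418 list medians 25 moved by more than the array spread, most with no cluster term.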

Other observations

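Although the replicate numbers of the DRlyp/lyp arrays (1 to 4) and the autologous arrays (7 to 10) are not shared, their deviations from the group means correlated across probe sets. The correlation was 0.127 for DRlyp/lyp replicate 1 with autologous replicate 7, 0.408 for 2 with 8, 0.614 for 3 with 9 and 0.394 for 4 with 10. Replicate 1 correlated more closely with replicate 8, at 0.260, and replicate 2 also with replicate 7, at 0.306. Nothing in the labels pairs these arrays, and genes are not independent replicates. The p-values of the main comparison treat the arrays as unpaired, and a pairing was not tested.

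T cell and platelet genes differed among arrays of 1 group. Bcl11b, a T cell transcription factor, was at 7.77, 8.47, 10.57 and 8.09 with DRlyp/lyp serum and at 5.53, 6.91, 10.06 and 9.38 with autologous serum, so DRlyp/lyp replicate 3 and autologous replicate 9 were the highest of their groups. The mean of the 18 T cell genes was likewise highest on these arrays, at 9.18 and 9.19, against 8.16 to 8.83 on the others, and their platelet means, 9.02 and 9.66, were the lowest of their groups.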
